A study of Homo sapiens with 4 samples.

Results

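The S100 family encodes small calcium-binding proteins, and 10 of its genes were followed on Illumina expression bead arrays of K562, a human erythroleukemia line established from a chronic myeloid leukemia in blast crisis. The genes were S100A4, S100A6, S100A8, S100A9, S100A10, S100A11, S100A13, S100A16, S100B and S100P. All probes that the platform annotation assigns to them were taken, detected or not, which gave 17 of the 47322 probes and 10 of 20045 named genes. The set was picked because S100A4 was much higher in the KLF3 knockdown arrays. Differences between knockdown and control are therefore given for its members as a description, with their errors and without printed p-values. Where a member probe is said to pass or not to pass the significance threshold, this too is description.

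The groups were a stable K562 line with a control short hairpin RNA (shRNA) and a stable K562 line whose shRNA targets KLF3, each with 2 arrays. KLF3 is a Krüppel-like zinc finger protein that mainly represses transcription. Cells were cultured normally and total RNA was taken from culture dishes. Nothing in the labels says that the arrays of a group came from separately derived lines or separate cultures, so each group stands for 1 line and the spread between its arrays may be technical. A probe counted as detected where its detection p-value against the negative-control beads was under 0.01. Between 15479 and 16182 probes were detected per array, and the normalized log2 values of arrays of the same group correlated across kept probes (r = 0.996 for control and 0.995 for knockdown arrays, against 0.974 to 0.975 between groups). Both KLF3 probes were undetected on all 4 arrays, with intensities between 118 and 143, so the arrays give no check of the depletion. All 12 erythroid marker genes with a probe, among them the globin genes HBG1 and HBZ, GATA1 and TFRC, had a probe detected on all 4 arrays.

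S100 proteins carry a pair of EF-hand calcium-binding loops and mostly work as dimers that open a binding surface for target proteins when calcium rises. Inside cells they act on the cytoskeleton, on annexins and on membranes, and several are also released and bind receptors such as RAGE and TLR4. S100A8 and S100A9 are abundant in neutrophils and monocytes, S100B in glia, and S100A4, also called fibroblast-specific protein or metastasin, in motile and mesenchymal cells. Most of the genes lie in a cluster on chromosome 1 among genes of epidermal differentiation. Of the 10 members 8 lie there, S100P lies on chromosome 4 and S100B on chromosome 21.

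The upstream sequences of 3 members are shown because these genes had the largest differences in each direction and because KLF proteins are known to bind CACCC-type elements. They are the 250 bases before the RefSeq gene start in build GRCh38.p14, 5′ to 3′ on the gene's own strand, which is the minus strand for all 3: chr1:153545807-153546056 for S100A4, chr1:151993860-151994109 for S100A10 and chr1:152037005-152037254 for S100A11. Capitals mark every match to CACCC or TATAAA on either strand, so that CACCC reads GGGTG on the other strand.
S100A4: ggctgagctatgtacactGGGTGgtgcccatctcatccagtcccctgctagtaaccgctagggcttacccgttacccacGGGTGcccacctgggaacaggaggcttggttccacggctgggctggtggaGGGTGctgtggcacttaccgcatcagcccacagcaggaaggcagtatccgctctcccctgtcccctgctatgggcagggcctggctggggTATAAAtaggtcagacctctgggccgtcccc
S100A10: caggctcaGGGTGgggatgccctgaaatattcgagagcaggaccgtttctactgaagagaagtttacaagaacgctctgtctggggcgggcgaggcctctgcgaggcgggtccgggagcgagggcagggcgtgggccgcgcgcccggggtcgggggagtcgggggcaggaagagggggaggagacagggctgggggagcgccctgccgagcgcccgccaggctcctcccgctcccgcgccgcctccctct
S100A11: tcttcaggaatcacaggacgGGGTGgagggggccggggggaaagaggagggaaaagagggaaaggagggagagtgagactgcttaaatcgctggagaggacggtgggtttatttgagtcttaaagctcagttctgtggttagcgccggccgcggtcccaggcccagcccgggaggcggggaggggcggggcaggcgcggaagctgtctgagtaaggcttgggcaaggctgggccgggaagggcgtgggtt
The S100A4 window held 3 CACCC matches and a TATAAA match that began 31 bases before the gene start (position -31). The S100A10 and S100A11 windows held 1 CACCC match each and no TATAAA match. No match overlapped another. CACCC was present in 54.7% of the 35116 windows of the same length in the RefSeq table, 3 or more matches in 8.56% and TATAAA in 10.7%. Of the 10 members 9 had a window in that table, and 11 of their 14 windows held CACCC and 6 held TATAAA. Windows of the same gene can overlap, and S100A8 matches were counted in each window that held them. An S100A13 window held 4 CACCC matches, although S100A13 was not higher in knockdown cells. The S100P window held 2 CACCC matches and a TATAAA match at position -28. These matches describe letters in a window and no binding was measured here.

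Among the 10 genes, S100A4 and S100A10 were higher in the knockdown line and S100A11 was lower. S100A13 was lower on both of its 2 kept probes, 1 of which passed the threshold given below. The others were at or near background. A probe was kept for the fit where both arrays of at least 1 group detected it, which held for 8 of the 17 member probes, from 5 genes. In the limma fit over 15722 kept probes, 4 of these 8 passed the threshold (Benjamini-Hochberg adjusted p under 0.05) as higher and 2 as lower. Over all kept probes 16.9% were called higher and 17.5% lower, 34.5% together. With median scaling in place of quantile normalization the share of all calls that was higher went from 49.1% to 37.8%, while the member calls were still 4 higher and 2 lower. The groups did not overlap for 8 of 8 kept member probes, against 71.4% of all kept probes. Their median log2 difference, knockdown minus control, was 0.13, against -0.01 over all kept probes. Since the set was chosen on this contrast, nothing is read from these counts.

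**Figure D1:**
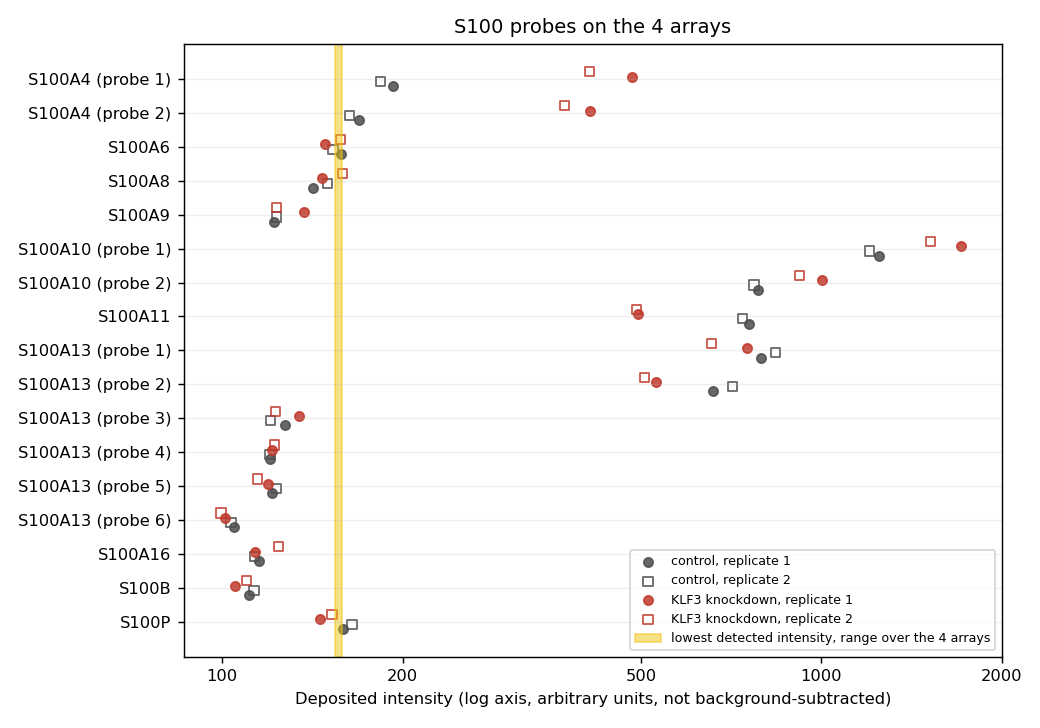
Deposited intensity of all 17 S100 probes on the 4 arrays, on a log axis in arbitrary units; grey marks are control and red marks knockdown arrays, filled circles replicate 1 and open squares replicate 2, and the yellow band spans the lowest detected intensity of the 4 arrays. The knockdown marks of both S100A4 probes lie right of the control marks, which sit just above the band, and the S100A6, S100A8, S100A9, S100A16, S100B and S100P marks lie at or left of it or just beyond it.

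S100A4 encodes the protein that binds the heavy chain of non-muscle myosin IIA and promotes filament disassembly. Its brighter probe read intensities of 193 and 184 in control and of 483 and 410.4 in knockdown cells. Its other probe read 169 and 163 in control and 411 and 372 in knockdown cells. All 4 knockdown readings were above all 4 control readings, and both probes were detected on every array. The control readings lay close to the lowest intensity of a detected probe, which was between 154.6 and 158 over the arrays.

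After background correction and normalization, the brighter S100A4 probe read 6.32 and 6.18 in control and 8.54 and 8.34 in knockdown cells on the log2 scale. This was a difference of 2.19 (SE 0.11), or 4.55-fold. The dimmer probe read 5.82 and 5.70 against 8.23 and 8.14, a difference of 2.43 (SE 0.09), or 5.38-fold. Both probes thus differed in the same direction, and among increases over the 15722 kept probes they ranked 27 and 15. These ranks restate how the set was picked. The size of the fold depended on how background was treated. Without background correction the differences were 1.295 (2.454-fold) and 1.29 (2.445-fold), and in the authors' processed values they were 1.269 (2.41-fold) and 1.266 (2.405-fold). With an offset of 50 in place of 16 they were 1.79 and 1.88.

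S100A10, also called p11, pairs with annexin A2 at membranes and differs from most of the family in holding its active shape without calcium. Its brighter probe read intensities of 1250.2 and 1205 in control and of 1711 and 1521 in knockdown cells. Its other probe read 784 and 772 against 1003 and 919. On each probe the knockdown arrays were above both control arrays. On the normalized log2 scale the brighter probe went from 10.13 and 10.08 to 10.62 and 10.51, a difference of 0.46 (SE 0.09), or 1.38-fold. The other probe went from 9.35 and 9.33 to 9.78 and 9.74, a difference of 0.42 (SE 0.08), or 1.34-fold. The 2 estimates lay within 1 SE of each other. Both calls were lost when either control array was left out, with differences of 0.41 to 0.49.

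S100A11, a partner of annexin A1 with roles in membrane repair and growth control, was lower. Its only probe read intensities of 757 and 739.8 in control and of 494 and 492 in knockdown cells. On the log2 scale these were 9.30 and 9.26 against 8.58 and 8.67, without overlap. The difference was -0.66 (SE 0.09), or 1.58-fold lower. It lay between -0.73 and -0.54 over the alternatives tried. S100A10 and S100A11 neighbour each other among the measured genes of chromosome 1 and differed in opposite directions.

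S100A13 takes part in the release of the growth factor FGF1 from cells and had 6 probes. The 2 that were kept are annotated to the same transcript. Probe 1 read intensities of 793 and 837 in control and 752 and 656 in the knockdown group, which are 9.37 and 9.47 against 9.32 and 9.18 on the log2 scale. The difference of -0.17 (SE 0.10) did not pass. Probe 2 read 661 and 710.2 against 530.4 and 507, or 9.06 and 9.20 against 8.70 and 8.72, a difference of -0.42 (SE 0.09) that passed. Both probes were lower on the knockdown arrays, and whether their 2 differences differ was not tested. The mean of the probes gave -0.29, which passed. Probe 2 no longer passed without control replicate 1 (-0.48) or without control replicate 2 (-0.35). The other 4 probes, annotated to 4 further transcripts, were undetected on all arrays, with intensities between 99.5 and 135.

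**Figure D2:**
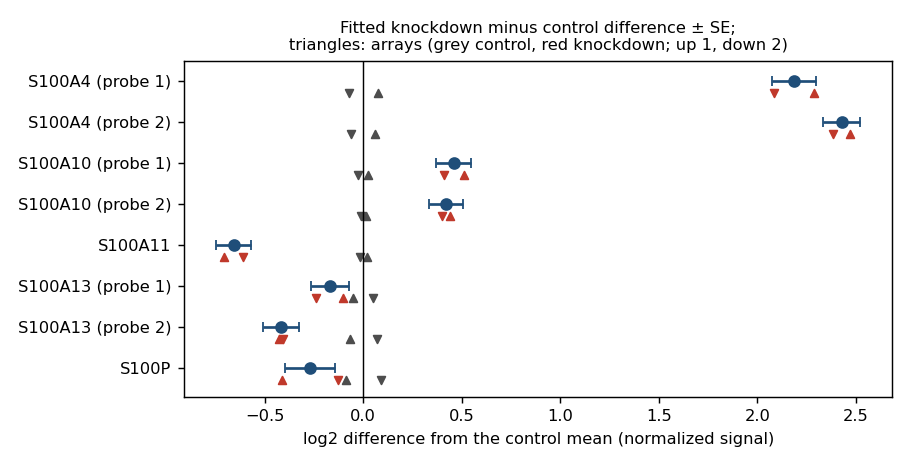
Fitted log2 difference (knockdown minus control, blue points with SE bars from limma) for the 8 kept S100 probes, with each array's distance from the control mean below it as triangles (grey control, red knockdown; upward replicate 1, downward replicate 2). The S100A4 probes stand at 2.19 and 2.43, the S100A10 probes at 0.46 and 0.42, S100A11 at -0.66, the S100A13 probes at -0.17 and -0.42 and S100P at -0.27.

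S100P, a family member that activates the membrane-cytoskeleton linker ezrin, was close to background. It read 159 and 165 on the control arrays, which detected it, and 146 and 152 on the knockdown arrays, which did not. It was kept only through the control group, where it is higher, so the filter itself favours a lower knockdown reading. The fitted log2 difference of -0.27 (SE 0.13) did not pass.

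S100A6, or calcyclin, was detected on 1 array of each group, with intensities of 158 and 153 in control and 149 and 158 in knockdown cells. The groups overlapped and no fold is given. S100A8 and S100A9 form calprotectin, the main cytosolic protein of neutrophils. S100A8 read 142 and 149.7 in control and 147 and 159 in knockdown cells, and only the last of these arrays detected it. S100A9 read 122 and 123 against 137 and 123 and was undetected on all 4 arrays. S100A16, a widely expressed member, read 115 and 113 against 114 and 124, and S100B, the glial member that binds RAGE, read 111 and 113 against 105 and 109.97. Neither was detected on any array. The intensities of the 9 probes that were not kept lay between 99.5 and 159, and 7 of them were detected on 0 arrays.

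Other S100 genes with a probe gave no signal either. The 11 probes of S100A1, S100A2, S100A3, S100A5, S100A7, S100A7A, S100A12, S100A14, S100G and S100Z were undetected on all arrays, with intensities between 99.5 and 145. At this sensitivity only S100A4, S100A10, S100A11 and S100A13 were detected on every array among the 20 S100 genes examined. Of the genes that carry an S100-like domain fused to a longer protein or bind S100P, trichohyalin gene TCHH and S100PBP had kept probes, 4 in all, and 0 passed the limma threshold. Over all kept probes 34.5% passed.

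**Figure D3:**
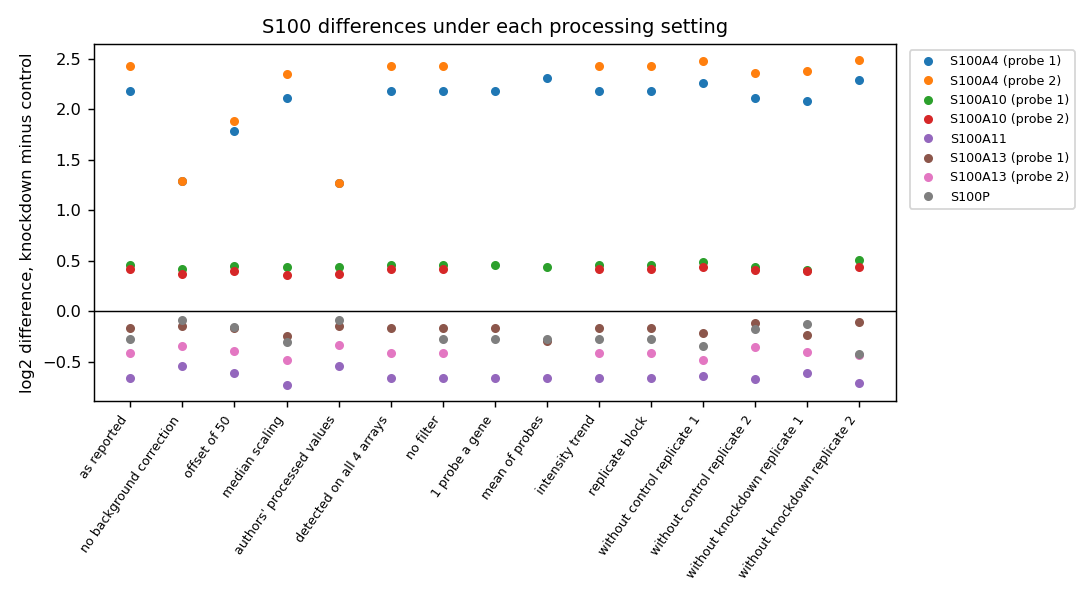
Log2 difference, knockdown minus control, of the 8 kept S100 probes (y axis) under the reported setting and each processing alternative (x axis). The 2 S100A4 probes stay above all others and drop to between 1.266 and 1.295 without background correction and in the authors' processed values, and no probe crosses 0.

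The genes around the S100 cluster were examined by their order on chromosome 1. From S100A10 to S100A13, the outermost members, 62 genes had a probe and 6 had a kept probe, 4 of them members. The 2 others, TCHH and the cornified envelope gene SPRR1A, did not pass, with differences of -0.32 (SE 0.15) and -0.14 (SE 0.17). Both lay close to background, with TCHH detected on 0 knockdown arrays and SPRR1A on 1. They were kept only through the control group, so the filter favours a lower knockdown reading. Of the 10 nearest measured genes on the S100A10 side, 1 was higher and 0 were lower, with a median difference of 0.02. The exception was CGN, encoding the tight junction protein cingulin, at 0.66 (SE 0.18, limma adjusted p = 0.0344), a call lost without control replicate 1, control replicate 2 or knockdown replicate 2 (differences 0.47, 0.85 and 0.47). The CGN probe was dim, and its difference was 0.26 without background correction and 0.25 in the authors' processed values. Of the 10 on the S100A13 side, 0 were higher and 3 were lower, with a median of -0.12. For comparison, 16.9% of all kept probes were called higher and 17.5% lower. GATAD2B, a subunit of the NuRD chromatin complex, fell by 0.81 (SE 0.09, limma adjusted p = 0.00261). DENND4B, encoding a regulator of RAB proteins, fell by 0.62 (SE 0.10, limma adjusted p = 0.00805). CHTOP, an mRNA export factor gene whose locus overlaps that of S100A13, fell by 0.34 (SE 0.09, limma adjusted p = 0.0340). The DENND4B call was lost without either control array (-0.60 and -0.63). The CHTOP call was lost without either control array and without knockdown replicate 1 (-0.34, -0.34 and -0.27), and with the replicate number as a block (adjusted p = 0.0514). The S100A4 difference of 2.19 was larger than that of every one of these 22 neighbours. Because S100A4 was picked for its rise, this order was favoured by the choice and nothing is read from it.

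**Figure D4:**
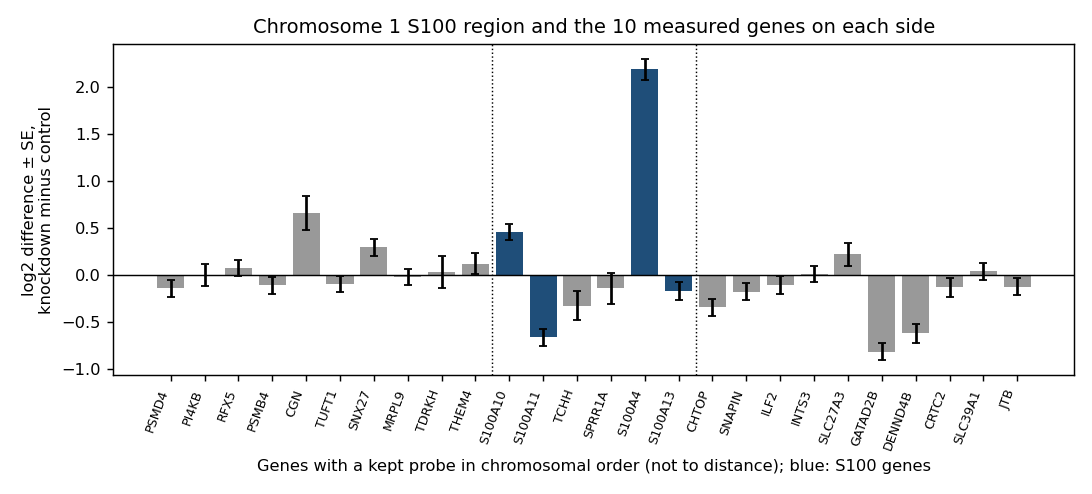
Log2 difference, knockdown minus control, with SE bars from limma, of the brightest kept probe of each gene in chromosomal order (not to distance); blue bars are S100 genes, grey bars other genes, and dotted lines bound the S100 region. S100A4 stands at 2.19, while the grey bars lie between -0.81 and 0.66.

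Proteins that S100 members bind inside cells were followed through 21 genes, 16 of which had a kept probe. Of their 24 probes 2 were higher and 4 lower, with a median difference of 0.02. These shares were not above those over all kept probes, 16.9% higher and 17.5% lower. MYH9, the non-muscle myosin IIA heavy chain gene whose product S100A4 binds, was lower on both probes: intensities of 1963 and 1890.2 in the control group against 1095 and 1153 on the brighter probe, and 1875 and 1790.1 against 955 and 1052 on the other. The knockdown arrays were below both control arrays on each probe. The log2 differences were -0.79 (SE 0.10, limma adjusted p = 0.00331) and -0.90 (SE 0.11, adjusted p = 0.00330). AHNAK, the large scaffold protein that the S100A10 and annexin A2 complex binds, fell by 0.59 (SE 0.09, limma adjusted p = 0.00698), a call lost without control replicate 2 (adjusted p = 0.0510). CACYBP and SUGT1, which bind S100A6, EZR, a partner of S100P, and STK38, a kinase that S100B binds, did not pass, with differences of 0.24, 0.01, 0.15 on the brighter EZR probe and 0.11.

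Annexins, calcium-dependent membrane-binding proteins that pair with several S100 proteins, had 11 kept probes from 7 genes, of which 2 were higher and 1 lower, with a median of 0.19. Over all kept probes the shares were 16.9% and 17.5%. ANXA1, ANXA2, ANXA6 and ANXA11 are also among the partner genes above, so these annexin calls are counted in both lists. ANXA2, the partner of S100A10, had 3 kept probes that disagreed. The brightest read intensities of 4630.4 and 4452 in control and 4273 and 4106 in knockdown cells and differed by -0.07 (SE 0.08), which did not pass. A dim probe read 159 and 159 against 184 and 184 and rose by 0.67 (SE 0.09, limma adjusted p = 0.00449), or 0.24 without background correction and 0.24 in the authors' processed values. The third ANXA2 probe differed by 0.22 and did not pass. ANXA6 rose by 0.71 (SE 0.13, adjusted p = 0.0112) on a dim probe, or 0.31 without background correction, and did not pass without control replicate 2 (0.64, adjusted p = 0.0728). ANXA1, the partner of S100A11, differed by 0.12 (SE 0.09) and did not pass. The lower probe belongs to ANXA11 and read 169 and 167 in control and 151 and 153 in knockdown cells, where it was undetected. It was kept only through the control group, so the filter favours a lower knockdown reading, and it did not pass without background correction (-0.12, limma adjusted p = 0.176). The 2 brighter ANXA11 probes differed by 0.19 and 0.26 in the other direction without passing. The mean of the ANXA11 probes gave 0.033.

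Among receptors for released S100 proteins, 3 of 7 genes had a kept probe. Of their 4 kept probes 1 was higher and 2 lower, and over all kept probes the shares were 16.9% and 17.5%. BSG, encoding basigin, which binds S100A9, rose by 0.51 (SE 0.10, limma adjusted p = 0.0131), from intensities of 2925 and 2803 to 4251 and 3591. NPTN, encoding neuroplastin, a receptor for S100A8, fell by 0.30 (SE 0.09, adjusted p = 0.0488) on the brighter of 2 kept probes and differed by -0.18 on the other, which did not pass; the NPTN call was lost with any 1 array left out, with median scaling and with the mean of its probes. AGER, the gene of RAGE, had 1 kept probe of 3, which read 171 and 168 in control and 153 and 154 in knockdown cells. This probe differed by -0.34 (SE 0.09, limma adjusted p = 0.0328). It was kept only through the control group, so the filter favours a lower knockdown reading, and it did not pass without background correction (-0.11, limma adjusted p = 0.189). The receptor calls were lost without either control array, and with the replicate number as a block only BSG passed. TLR4, CD36 and MCAM were undetected on every array.

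Other EF-hand genes, which share the calcium-binding fold of S100 proteins, had 34 kept probes from 28 genes, 4 higher and 5 lower, with a median of -0.10. The shares over all kept probes were 16.9% higher and 17.5% lower. PPP3R1, the regulatory subunit gene of calcineurin, rose by 0.60 (SE 0.09, limma adjusted p = 0.00601). SRI, encoding the channel regulator sorcin, rose by 0.50 (SE 0.13, adjusted p = 0.0285) on 1 of 3 kept probes, the others differing by 0.15 and 0.03 without passing. EFHD2, an actin-binding EF-hand protein gene, fell by 0.39 (SE 0.09, adjusted p = 0.0225). The centrin gene CETN3 rose by 0.33 (SE 0.10, adjusted p = 0.0430) and CHP1, a cofactor of sodium-proton exchangers, fell by 0.32 (SE 0.10, adjusted p = 0.0467). In place of 4 higher and 5 lower probes, median scaling gave 1 higher and 6 lower. In place of 9 probes, 1 passed without control replicate 1, 2 without control replicate 2 and 4 with the replicate number as a block. The SRI, CETN3 and CHP1 calls were lost with median scaling. No probe of these lists differed by as much as either S100A4 probe, but S100A4 was picked for its rise, so nothing is read from this.

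**Figure D5:**
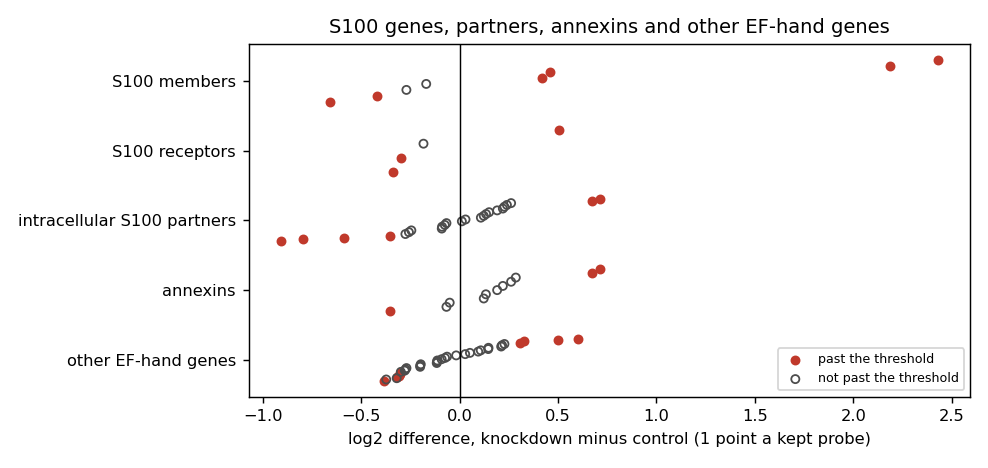
Log2 difference, knockdown minus control, of every kept probe of the S100 members, receptors, intracellular partners, annexins and other EF-hand genes (1 point a probe, rows spread vertically for clarity); filled red points passed the limma threshold and open points did not. The S100A4 probes at 2.19 and 2.43 lie right of all others, and the points furthest left are the MYH9 probes at -0.90 and -0.79.

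The probes whose 4 normalized log2 values lay nearest to those of the brighter S100A4 probe belonged to LGMN, MAGEC2, FCF1, ABCA3 and HEMGN, with Euclidean distances of 0.50, 0.51, 0.52, 0.52 and 0.53. LGMN encodes the lysosomal protease legumain, MAGEC2 a cancer-testis antigen, FCF1 a ribosomal RNA processing factor, ABCA3 a lipid transporter and HEMGN the hematopoietic nuclear protein hemogen. Their log2 differences were 1.88, 1.83, 1.70, 1.82 and 1.95. With 4 arrays in 2 groups this likeness reflects the level of a probe and its group difference only. None of the 5 genes lies on chromosome 1.

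Markers of cells in which S100 genes are known to be abundant were set beside these results. Of 16 granulocyte and monocyte marker genes with a probe, 9 were undetected on all arrays, among them MPO, ELANE, CSF1R and FCN1, and the background-corrected signal summed over the list was 577 to 651 in control and 1085 to 1324 in knockdown cells. Most of the difference between these sums was LYZ, the lysozyme gene. On the brighter of its 2 kept probes LYZ read 311 and 340.2 in control and 799 and 909 in knockdown cells. This was a 3.68-fold rise (limma adjusted p = 0.000701). The other LYZ probe, undetected in control cells, was kept only through the knockdown group, so the filter favours a higher knockdown reading. That probe differed by 0.55 on the log2 scale. The mean of the probes, which includes it, gave a log2 difference of 1.21. A CD14 probe read 152 and 155 in control cells, where it was undetected, and 166 and 170.2 in knockdown cells. It was kept only through the knockdown group, and without background correction its log2 difference of 0.16 did not pass (limma adjusted p = 0.0717). The 4 other kept genes of the list did not pass, with log2 differences of -0.32 for CSF3R, 0.0081 for AZU1, 0.08 for CYBB and 0.19 for ITGAM. S100A8 was detected on 1 knockdown array and S100A9 on none. Of 15 fibroblast and mesenchymal marker genes, 13 were undetected on all arrays, including COL1A1, COL1A2, FN1 and PDGFRB. The summed signal of that list was 10230.3 to 10568 in control and 6439 to 7217 in knockdown cells. Most of this sum was VIM, the intermediate filament gene vimentin. Its brighter probe read intensities of 10626 and 10330 in control and 6376 and 6678 in knockdown cells. It fell by 0.64 (SE 0.10, limma adjusted p = 0.00586). The only other kept gene of the list, ZEB2, differed by 0.16 without passing. The erythroid list summed to 49762 to 50721 in control and 88109 to 88827 in knockdown cells. Of its 13 kept probes 8 were called higher and 1 lower, against 16.9% and 17.5% of all kept probes. Its members did not all go 1 way: TFRC fell by 0.60 (SE 0.08, limma adjusted p = 0.00472) and GATA1 differed by -0.14 without passing. Epithelial markers summed to 3379 to 3414 against 3112 to 3297. Of their 7 kept probes 1 was called higher and 1 lower. KRT8 fell by 0.47 (SE 0.09, limma adjusted p = 0.0135). The dimmest kept EPCAM probe rose by 0.36 (SE 0.09, limma adjusted p = 0.0310), and the brighter EPCAM probes differed by 0.08 and 0.15 without passing. Lymphocyte markers, undetected for 7 of 8 genes, summed to 137 to 175 against 169.9 to 196. The part of any of these in the S100 differences was not tested. In bulk RNA, more cells carrying a transcript and more transcript per cell cannot be told apart.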

How the data were processed

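Each of 4 samples was 1 Illumina bead array, 2 per group. Per the file headers, the authors deposited for each of 47322 probes a mean bead intensity and a detection p-value, which moves in steps of 1 in 770. The deposited intensities are linear and not normalized between arrays, with medians of 136 to 139.6. A second table deposited by the authors holds processed intensity values with the same quantiles on all arrays, linear and uncentred. For both tables software, slides and scan times are not stated in the sources used here.

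The neqc function (limma 3.58.1, R 4.3.3) corrected background and quantile normalized the arrays, with an offset of 16 and the negative-control level inferred from the detection p-values. Log2 differences are on this scale. Kept probes numbered 15722 (detected at p under 0.01 by both control or both knockdown arrays). They were fitted with lmFit and eBayes (two-sided, no covariates; degrees of freedom 2 residual and 4.09 prior). P-values were adjusted by Benjamini-Hochberg over all kept probes, threshold 0.05. The fit was tested on simulated data. With 2 arrays a group, the smallest p of an exact permutation test is 0.333. Where a group did not detect a probe, no fold is printed. Log2 differences of such probes are the fitted values and not bounds. Precision is limited by the number of arrays.

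Of all probes 30112 had 1 symbol, 8 several and 17202 none in the platform annotation, and 30073 were updated by gene identifier through RefSeq genes of GRCh38.p14, which gave gene order. The members, lists and tests were chosen with earlier results of these data known. Named genes were, by rule, all members, up to 5 genes per related list that passed with the largest differences, neighbours of the cluster that passed, and the 5 nearest probes to S100A4. Genes named without having passed, and markers other than those of highest level, were picked with their values known. Alternatives changed the background correction, offset, scaling, filter, probe summary, variance model, replicate block and arrays. Deviations of same-numbered arrays from their group means correlated with r = 0.00894.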

Additional observations from a re-analysis of the deposited data

How the results depend on the processing

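No S100 probe changed sign over the alternatives, which for S100A4 restates how the set was picked. The member calls of 6 became 3 with all probes fitted and 3 with 1 probe a gene, where only 5 were tested, and 4 with the mean of probes. They ranged from 3 to 6 with an array left out, with 3 without either control array. Calls over all kept probes, 5420, became 2273 with all 47322 probes fitted and ranged from 2057 to 4758 with an array left out. The numbers 1 and 2 are only the first array and its repeat. With the replicate block the member calls were 6 and all calls 4836. The ANXA11 difference reversed with the mean of its probes (0.033). Calls in the related lists depended on the variance model: with an intensity trend 10 partner, 5 annexin and 15 other EF-hand probes passed in place of 6, 3 and 9. Without background correction these counts were 10, 5 and 16 and in the authors' processed values 10, 5 and 17. Annexin probes on the partner list count in both lists. With all probes fitted 1 annexin, 1 other EF-hand and 0 receptor probes passed. Of the 25 probes named outside the S100 set, 12 did not pass with all probes fitted, 12 without control replicate 1, 13 without control replicate 2 and 6 with the replicate block. The cause of these shifts was not tested. Signals near background, those of S100A6, S100A8, S100A9, S100A16, S100B and S100P, give no usable fold.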
